A study of Mus musculus with 6 samples.

Results

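Nbdy encodes NoBody, a very small protein that was described in human cells as a partner of the decapping machinery, where it binds EDC4. It is described here together with 8 genes of mRNA decapping and the decay that follows it: Dcp1a, Dcp1b, Dcp2, Edc3, Edc4, Ddx6, Lsm14a and Xrn1. The members are all probe sets that the array annotation gives to only 1 of these 9 genes, which are 21 of the 45101 probe sets on the array. Nbdy was selected on its signal difference between the same groups that are compared below, so that difference is a description and has no test. The other 8 genes are listed for their known role in decapping or the decay that follows it. They are called partners below for short, and only Edc4 is given here as bound by NoBody.

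The cells were MIN6, a mouse insulinoma line that makes insulin. Electroporation delivered 100 pmol of siRNA, directed at TDP-43 for 3 arrays and a control siRNA for the other 3; Tardbp is the gene for TDP-43, which binds RNA. The labels do not state whether replicates were separate cultures, so p-values measure only the spread between these arrays, which may be technical. Effects of lower TDP-43 cannot be told apart from other effects of the siRNA.

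A cap at the front end of an mRNA protects it and recruits the translation machinery. When the tail has been shortened, the enzyme Dcp2 cuts the cap off with the help of Dcp1a or Dcp1b. Edc3, Edc4, Ddx6 and Lsm14a enhance decapping or repress translation, and the exonuclease Xrn1 then degrades the uncapped RNA from its front end. Many of these proteins gather in cytoplasmic granules called P-bodies, and in human cells the level of NoBody was reported to run opposite to the number of P-bodies.

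The arrays were even in scale, with median signals between 72.3 and 79.97, and the log2 values of any pair of arrays correlated between 0.982 and 0.988. The knockdown was visible on all 5 probe sets of Tardbp. The brightest, 1423723_s_at, read 2257, 2249 and 1836 on TDP-43 siRNA arrays, against 3748, 3940 and 3699 on control siRNA arrays (log2 difference -0.85, SE 0.09, limma adjusted p = 0.00216). That was the smallest of the 5 differences: 1455655_a_at was at -0.86, 1436318_at at -1.24, 1428467_at at -1.27 and 1434419_s_at at -1.41, all past the threshold. The Tardbp signal left after TDP-43 siRNA thus ran between 37.0% and 55.7% of the control signal, depending on the probe set. The suffix s marks probes that may read more than 1 transcript. The cells carried beta cell transcripts: 10 of 12 listed markers had a probe set of their own and all 10 passed the filter on low signals, led by Iapp, G6pc2 and Slc2a2. Ins1 and Mafa had no such probe set. Among markers of other cells, Ttr and Gcg were bright in MIN6 itself, at 21924 and 8165 on TDP-43 siRNA arrays and 22767 and 9264 on control siRNA arrays. Irx2 was the next of the islet markers, at 390 after TDP-43 siRNA and 393 after control siRNA. The duct keratin Krt7 was bright as well, at 5287 on TDP-43 siRNA arrays and 5648 on control siRNA arrays. Cela3b and Car2 came next among acinar and duct markers, and the brightest of fibroblasts, endothelial and immune cells were Kdr, Col1a2 and Cd68. Of the 40 listed markers with a probe set, 25 passed the filter, and 0 of these passed the test between groups, beside 0.585% of all 27023 probe sets tested. The groups did not overlap for 4 of the 25, beside 17.2% of all probe sets tested, and the same 4 had an unadjusted p under 0.05, beside 11.3%.

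Those 4 markers had groups that lay apart, without passing the test. Slc30a8, the zinc transporter of insulin granules, averaged 9082 after TDP-43 siRNA and 7656 after control siRNA (log2 difference 0.25, limma adjusted p = 0.149). The delta cell hormone Sst was near the filter, at 97.3, 43.2 and 46.7 on TDP-43 siRNA arrays, against 9.92, 42.1 and 23.3 on control siRNA arrays (log2 difference 1.03, limma adjusted p = 0.353). Car2, a carbonic anhydrase of duct cells, averaged 108 after TDP-43 siRNA and 174 after control siRNA (log2 difference -0.76, limma adjusted p = 0.424). Its signals were 120, 158 and 46.5 on TDP-43 siRNA arrays, against 187, 161 and 173 on control siRNA arrays. The gap between the groups was thus narrow, and TDP-43 siRNA replicate 3 was far below the rest. Col1a2, a collagen of fibroblasts, averaged 56.2 after TDP-43 siRNA and 93.9 after control siRNA (log2 difference -0.63, limma adjusted p = 0.346). The summed signal of the beta cell markers was 83758 to 92054 on TDP-43 siRNA arrays and 84618 to 88521 on control siRNA arrays. The part of these markers in the results below was not tested.

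Nbdy was lower on every TDP-43 siRNA array than on any control siRNA array. Its single probe set, 1430538_at, read 2138, 2272 and 1994 on TDP-43 siRNA arrays, against 3632, 3560 and 3574 on control siRNA arrays. The groups lay far apart: the highest TDP-43 siRNA array was at 63.3% of the control mean and the lowest at 55.6%. The mean signal was 2135 ± 139 after TDP-43 siRNA and 3589 ± 38.0 after control siRNA (SD, n = 3 each), which leaves 59.5% of the control signal. The log2 difference was -0.75 with a standard error of 0.07. In bulk RNA, a lower level in every cell and a loss from some of the cells cannot be told apart.

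The spread of Nbdy was uneven between the groups. On the log2 scale the SD was 0.09 among TDP-43 siRNA arrays and 0.02 among control siRNA arrays, where the median over all tested probe sets was 0.13 and 0.14. TDP-43 siRNA replicate 3 had the lowest Nbdy signal and also the lowest Tardbp signal, at 55.6% and 48.4% of the control means (Tardbp here by 1423723_s_at). Replicates 1 and 2 were at 59.6% and 63.3% for Nbdy and at 59.5% and 59.3% for Tardbp. With each array left out in turn the Nbdy difference lay between -0.79 and -0.70. Groups without overlap could not change its sign in this way. Of 27023 probe sets tested, 144 had a lower difference than Nbdy. The annotation gives Nbdy no second probe set, so the difference rests on this reading alone.

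**Figure D1:**
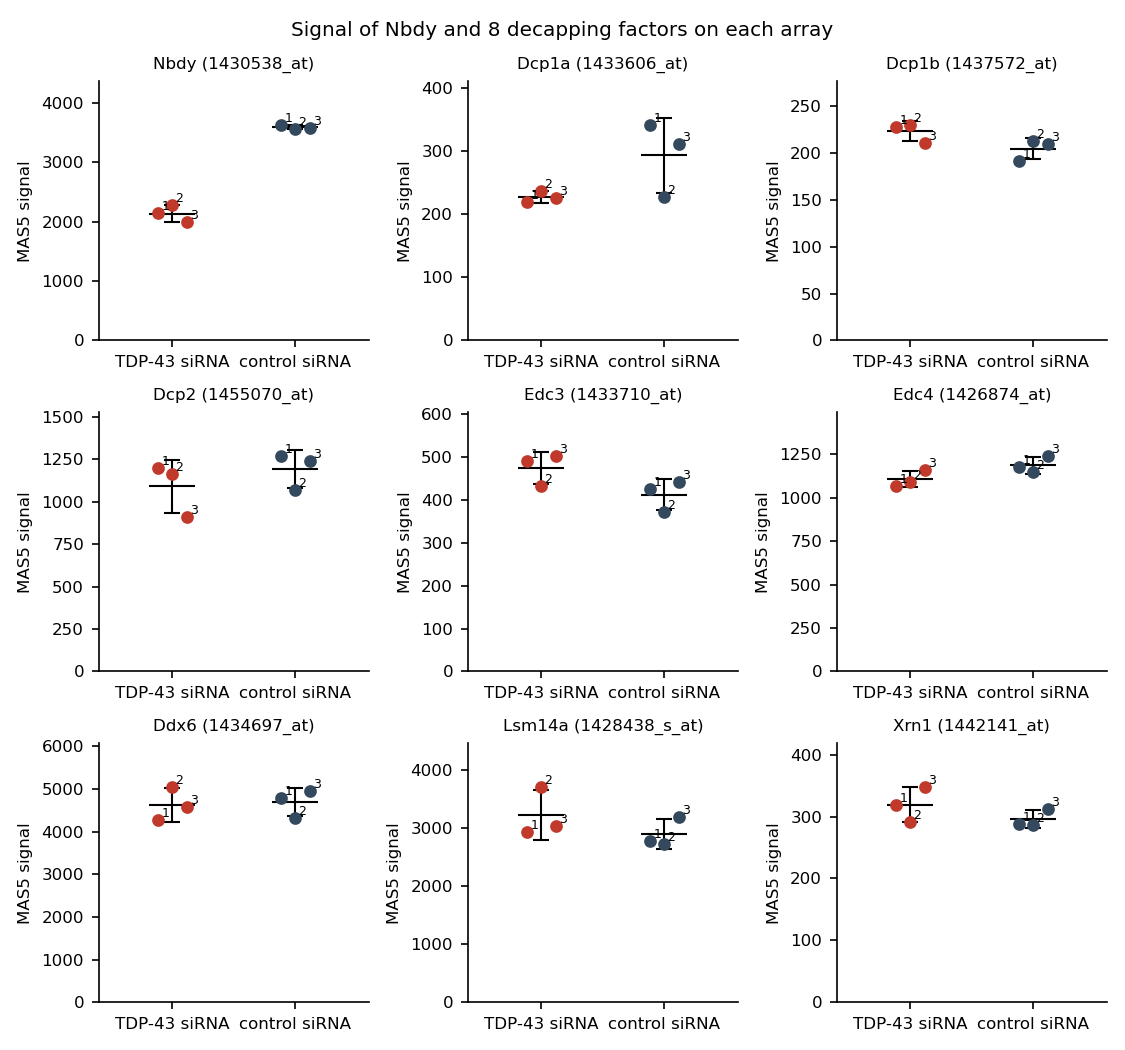
MAS5 signal (vertical axes, linear and from 0) on each of 3 TDP-43 siRNA arrays and 3 control siRNA arrays for the brightest probe set of each of the 9 genes; small numbers are replicates, and black bars give the mean ± SD. Nbdy, selected on this contrast, was at 1994 to 2272 after TDP-43 siRNA and 3560 to 3632 after control siRNA. In the other 8 panels the groups overlap. Over all probe sets tested 17.2% had groups without overlap, so this is near the background.

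The next question was whether the 8 partner genes moved as well. Of the 20 partner probe sets, 15 passed the filter and were tested, and 0 of them were called at a limma adjusted p of 0.05 (lowest adjusted p = 0.291). The share called over all 27023 probe sets was 0.585%, so a count of 0 among 15 is not apart from the background. At an unadjusted p under 0.05 there were 2, both of Lsm14a, beside 11.3% of all probe sets tested, so that count too is near the background. On the brightest probe sets 4 of 8 partners lay above 0 and 4 below, between -0.33 and 0.20, and their median was 0.04, beside 0.01 over all probe sets tested. That median has no settled sign: it was -0.03 with the mean of each gene's probe sets and -0.02 without TDP-43 siRNA replicate 2. With all 6 arrays, the lowest 95% confidence bound of any partner's brightest probe set was -0.67, for Dcp1a.

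The catalytic enzyme and its activators come first. Dcp2, which hydrolyses the cap, read 1198, 1167 and 913 on TDP-43 siRNA arrays, against 1272, 1067 and 1238 on control siRNA arrays (1455070_at). The groups overlapped, with TDP-43 siRNA replicate 3 the lowest of the 6. On the log2 scale Dcp2 differed by -0.13 (SE 0.12, 95% confidence interval -0.39 to 0.13, limma adjusted p = 0.730), and -0.01 without TDP-43 siRNA replicate 3. The dimmer probe set 1430150_at was at -0.13 (SE 0.18), and its size rested on single arrays: -0.0042 without control siRNA replicate 2, -0.02 without TDP-43 siRNA replicate 3, and -0.27 without TDP-43 siRNA replicate 1.

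Dcp1a, an activator of Dcp2, had the largest difference among the partners without passing. Its brightest probe set, 1433606_at, read 219, 237 and 225 on TDP-43 siRNA arrays, against 342, 227 and 311 on control siRNA arrays. Control siRNA replicate 2 lay among the TDP-43 siRNA arrays, while the other control siRNA arrays lay above them. The log2 difference was -0.33 (SE 0.15, 95% confidence interval -0.67 to 0.0041, limma adjusted p = 0.448). It was -0.50 without control siRNA replicate 2 (limma adjusted p = 0.233) and -0.22 without control siRNA replicate 1 (limma adjusted p = 0.821). The second tested probe set of Dcp1a, 1422131_at, was at 0.07 (SE 0.18), with signals of 72.9, 66.1 and 81.5 after TDP-43 siRNA and 65.4, 71.2 and 70.6 after control siRNA, and at 0.01 without TDP-43 siRNA replicate 3. The probe sets differed in their change by 0.41 (SE 0.23), which did not pass (limma adjusted p = 0.879 over 10814 pairs of probe sets).

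Dcp1b, the paralogue of Dcp1a, read 228, 230 and 211 on TDP-43 siRNA arrays, against 191, 213 and 210 on control siRNA arrays (1437572_at). TDP-43 siRNA replicate 3 fell between control siRNA replicates 2 and 3. Dcp1b differed by 0.12 on the log2 scale (SE 0.12, 95% confidence interval -0.14 to 0.38, limma adjusted p = 0.760), and by 0.07 without control siRNA replicate 1.

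Edc4 is the scaffold that NoBody binds in human cells. Its single probe set, 1426874_at, read 1070, 1091 and 1157 on TDP-43 siRNA arrays, against 1176, 1147 and 1242 on control siRNA arrays. Only TDP-43 siRNA replicate 3 and control siRNA replicate 2 crossed, by a small margin. Edc4 differed by -0.10 on the log2 scale (SE 0.07, limma adjusted p = 0.659), and its 95% confidence interval from -0.27 to 0.06 was the narrowest of the 8 brightest partner probe sets. Edc4 signal after TDP-43 siRNA was 93.1% of that after control siRNA.

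Edc3, another enhancer of decapping, pointed the other way. It read 491, 433 and 504 on TDP-43 siRNA arrays, against 425, 371 and 442 on control siRNA arrays (1433710_at, its single probe set). TDP-43 siRNA replicate 2 lay below control siRNA replicate 3, so the groups overlapped. Its log2 difference of 0.20 (SE 0.11, 95% confidence interval -0.04 to 0.44, limma adjusted p = 0.519) was the highest of the 8 brightest partner probe sets, and it was 0.13 without control siRNA replicate 2.

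Ddx6, an RNA helicase of P-bodies that represses translation and promotes decapping, read 4263, 5055 and 4585 on TDP-43 siRNA arrays, against 4792, 4318 and 4953 on control siRNA arrays (1434697_at). The groups were fully mixed. Ddx6 differed by -0.02 on the log2 scale (SE 0.08, 95% confidence interval -0.19 to 0.16, limma adjusted p = 0.958), and its sign turned under some alternatives. Its next probe sets, 1439122_at and 1424598_at, were at -0.07 (SE 0.08) and -0.15 (SE 0.10). With an array left out they ranged between -0.14 and -0.02 and between -0.23 and -0.07.

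Lsm14a, a translational repressor that binds Ddx6 and in human cells is needed to form P-bodies, had 3 bright probe sets with differences on the same side of 0. The brightest, 1428438_s_at, read 2932, 3717 and 3036 on TDP-43 siRNA arrays, against 2778, 2729 and 3202 on control siRNA arrays, with control siRNA replicate 3 above TDP-43 siRNA replicates 1 and 3. Its suffix s carries the same caution as for Tardbp. On 1428436_at the signals were 2769, 2687 and 2688 after TDP-43 siRNA and 2305, 2389 and 2493 after control siRNA. On 1428437_at they were 3165, 2958 and 2898 after TDP-43 siRNA and 2648, 2690 and 2784 after control siRNA. On both of these the groups did not overlap. The annotation gives the 3 probe sets the same sequence entry, so they are not independent readings. In the order above their log2 differences were 0.15 (SE 0.10), 0.18 (SE 0.06) and 0.15 (SE 0.06), and the first was 0.04 without TDP-43 siRNA replicate 2. None passed, with limma adjusted p = 0.621, 0.291 and 0.397. Groups without overlap were seen on 2 of the 15 partner probe sets tested, beside 17.2% of all 27023, so the share was near the background.

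Xrn1, the exonuclease that acts after decapping, read 319, 291 and 348 on TDP-43 siRNA arrays, against 288, 286 and 312 on control siRNA arrays (1442141_at). The lowest TDP-43 siRNA array stood among the control siRNA arrays. The log2 difference was 0.11 (SE 0.11, 95% confidence interval -0.14 to 0.35, limma adjusted p = 0.777). It was 0.04 without TDP-43 siRNA replicate 3 and 0.17 without TDP-43 siRNA replicate 2. The dimmer 1450308_a_at was at -0.06 (SE 0.15), and its sign turned without TDP-43 siRNA replicate 3.

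**Figure D2:**
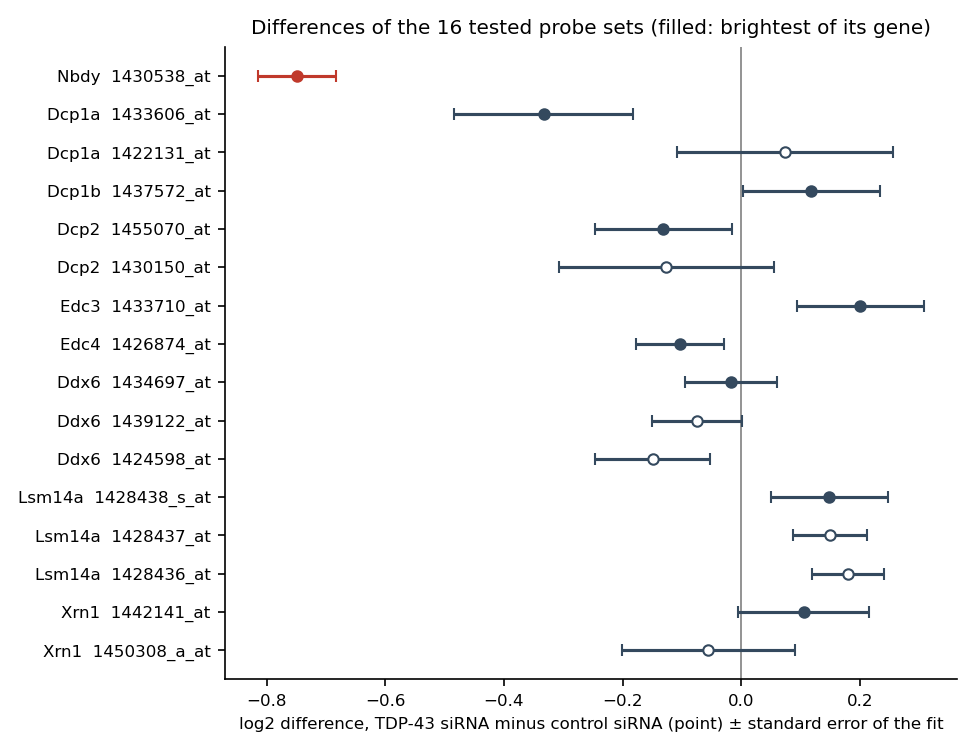
Log2 difference of TDP-43 siRNA minus control siRNA (horizontal axis) for the 16 tested probe sets of the 9 genes, with bars for the standard error of the fit; filled points are the brightest probe set of a gene. Nbdy stands at -0.75, and the 15 partner probe sets lie between -0.33 and 0.20.

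The 5 remaining probe sets fell under the filter. They belong to Dcp1a (1431933_a_at), Dcp1b (1444030_at and 1458614_at), Ddx6 (1447789_x_at) and Lsm14a (1457738_at). Their signals lay between 1 and 37.7 on any array. Their differences, from -0.21 to 0.42 on the log2 scale, carry no test. Of these 5, only 1447789_x_at of Ddx6 had groups that did not overlap, by a narrow margin. It read 22.9, 17.2 and 23.1 after TDP-43 siRNA and 23.2, 26.1 and 29.4 after control siRNA. Among tested probe sets 17.2% had groups without overlap, and the share under the filter was not computed, so nothing is read from it. Probe sets of 1 gene were also compared with each other, each further one against the brightest, and 0 of 7 partner pairs passed (limma, lowest adjusted p = 0.879; 0 at an unadjusted p under 0.05). Over all 10814 pairs of the array 2 passed, or 0.0185%, so 0 of 7 is not apart from the background.

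Across the whole array, 158 of 27023 probe sets were called, 35 higher and 123 lower after TDP-43 siRNA. Nbdy's probe set was part of this fit, but it was selected on its difference, so no outcome of the test is read for it. The count varied with the arrays kept. It was 63, 77 and 62 without TDP-43 siRNA replicates 1, 2 and 3. It was 56, 63 and 325 without control siRNA replicates 1, 2 and 3. Each such fit has fewer arrays in a group, and only leaving out control siRNA replicate 3 raised the count. A variance model without the intensity trend called 0 probe sets (limma; 2895 had an unadjusted p under 0.05, against 3053 with the trend), Tardbp among those lost (limma adjusted p = 0.0964).

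**Figure D3:**
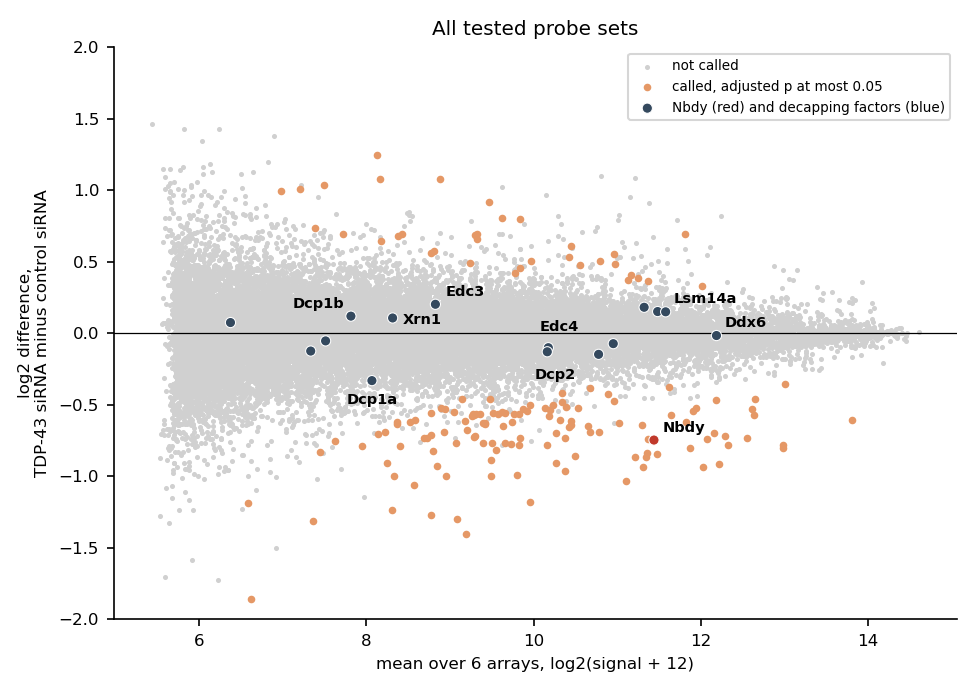
Mean log2(signal + 12) over 6 arrays (horizontal axis) against the log2 difference of TDP-43 siRNA minus control siRNA (vertical axis) for 27023 probe sets; orange points were called at an adjusted p of 0.05, Nbdy is red and the decapping factors are blue, with a name at each gene's brightest probe set. Nbdy stands at -0.75, and the tested decapping factors lie between -0.33 and 0.20.

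The rest of the mRNA decay machinery was read from 5 lists of 95 names, of which 86 had a probe set past the filter and were tested. The deadenylase name Nocn was a misspelling of Noct and matched no gene, so Noct was not looked up. None was called in either direction (limma; 6 had an unadjusted p under 0.05, lowest adjusted p = 0.226). Over all probe sets tested 0.585% were called and 11.3% had an unadjusted p under 0.05, so a count of 0 is near the background here and in each list below. Of the 86 genes, 71 lay within 0.2 of 0, with 44 of all 86 above 0 and 42 below, and the median was 0.01. The share of all tested probe sets within 0.2 was not computed. Their 5th and 95th percentiles were -0.36 and 0.35. The groups did not overlap for 11 of 86 genes, beside 17.2% of all probe sets tested.

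Among 16 tested genes of the Lsm1 to Lsm7 ring, Pat1 and other decapping partners, 0 were called and the median was -0.03. Patl1, the mouse Pat1 protein that bridges deadenylation and decapping, read 1139, 1101 and 1111 on TDP-43 siRNA arrays, against 941, 871 and 1009 on control siRNA arrays (log2 difference 0.25, SE 0.08, limma adjusted p = 0.268). Lsm4, a ring subunit, was at -0.17 (SE 0.06, limma adjusted p = 0.290), with 4057, 3858 and 4042 after TDP-43 siRNA and 4658, 4310 and 4483 after control siRNA. For both genes the groups did not overlap, and their differences had opposite signs.

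Of 9 other enzymes of the cap or of front-end decay, 0 were called and the median was 0.05. Nudt17, a Nudix hydrolase, had the widest difference of all 86 genes at 0.53, with a standard error of 0.29. Its signals of 110, 56.8 and 135 after TDP-43 siRNA and 55.5, 50.9 and 84.7 after control siRNA overlapped (limma adjusted p = 0.544). Nudt3, a Nudix enzyme with decapping activity, was at 0.11 (SE 0.07).

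Of 20 deadenylases and adaptors, which shorten the tail before decapping, 0 were called and the median was 0.02. Cnot7, a catalytic subunit of the CCR4-NOT complex, read 4540, 4438 and 4258 on TDP-43 siRNA arrays, against 3528, 3684 and 4105 on control siRNA arrays. That log2 difference of 0.23 (SE 0.07) had the lowest adjusted p of the 86 genes (limma adjusted p = 0.226), without overlap of the groups. Angel1 was at 0.26 (SE 0.10, limma adjusted p = 0.363).

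Of 18 listed genes of the RNA exosome, the Ski complex and related decay factors, 0 were called and the median was -0.04. Skiv2l, the Ski helicase, was at -0.31 (SE 0.13, limma adjusted p = 0.415), and Exosc7, an exosome core subunit, at -0.16 (SE 0.08, limma adjusted p = 0.470). Of 23 P-body repressors and decay adaptors 0 were called and the median was 0.01. Zfp36, which recruits decay factors to AU-rich mRNAs, was at 0.33 (SE 0.12, limma adjusted p = 0.332), and Fmr1, a translational repressor, at -0.16 (SE 0.07, limma adjusted p = 0.475).

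**Figure D4:**
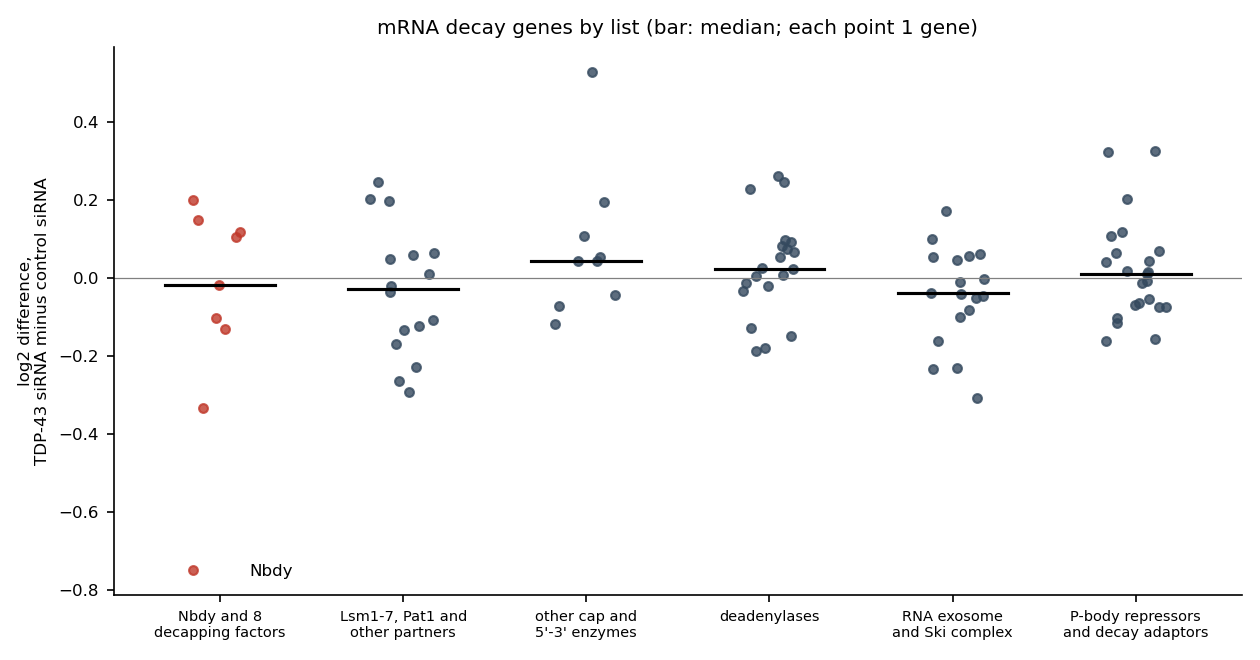
Log2 difference of TDP-43 siRNA minus control siRNA (vertical axis) for each tested gene by its brightest probe set, in 6 columns: Nbdy with the 8 decapping factors (red), then the 5 lists of other mRNA decay genes (blue), with a bar at each median. Nbdy is the lowest point at -0.75, and the 86 other genes lie between -0.31 and 0.53.

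The profile of Nbdy over the 6 arrays was set against 12003 other genes past the filter, each by its brightest probe set. Genes with provisional names of the Gm and Rik kind were skipped. The highest Pearson correlations over 6 arrays were those of Tm7sf2 (0.999), Impa1 (0.999), H1f2 (0.997), Gxylt1 (0.996) and Akr1a1 (0.996). Tm7sf2 is a sterol reductase, Impa1 an inositol monophosphatase, H1f2 a linker histone, Gxylt1 a xylosyltransferase and Akr1a1 an aldehyde reductase. The correlation says nothing of size: the log2 difference was -0.25 for Tm7sf2, -0.74 for Impa1, -0.57 for H1f2, -0.72 for Gxylt1 and -0.61 for Akr1a1. Impa1 came closest to Nbdy in level change, with 2020, 2145 and 1937 on TDP-43 siRNA arrays, against 3436, 3329 and 3468 on control siRNA arrays. The most opposite profiles were those of Brwd1 (-0.994), Elavl3 (-0.991) and Lman2l (-0.990), with log2 differences of 0.50, 0.37 and 0.24. Of the genes named here, Tm7sf2, Elavl3 and Lman2l did not pass the test (limma adjusted p = 0.226, 0.120 and 0.184). Impa1, H1f2, Gxylt1, Akr1a1 and Brwd1 did pass. With only 6 arrays, genes whose groups lie apart can reach high values, and the named genes were not alone. Because Nbdy was selected on its difference between these groups, likeness to it largely follows that contrast and adds no support. Of the 12003 genes, 133 reached 0.95 or more and 77 reached -0.95 or less.

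**Figure D5:**
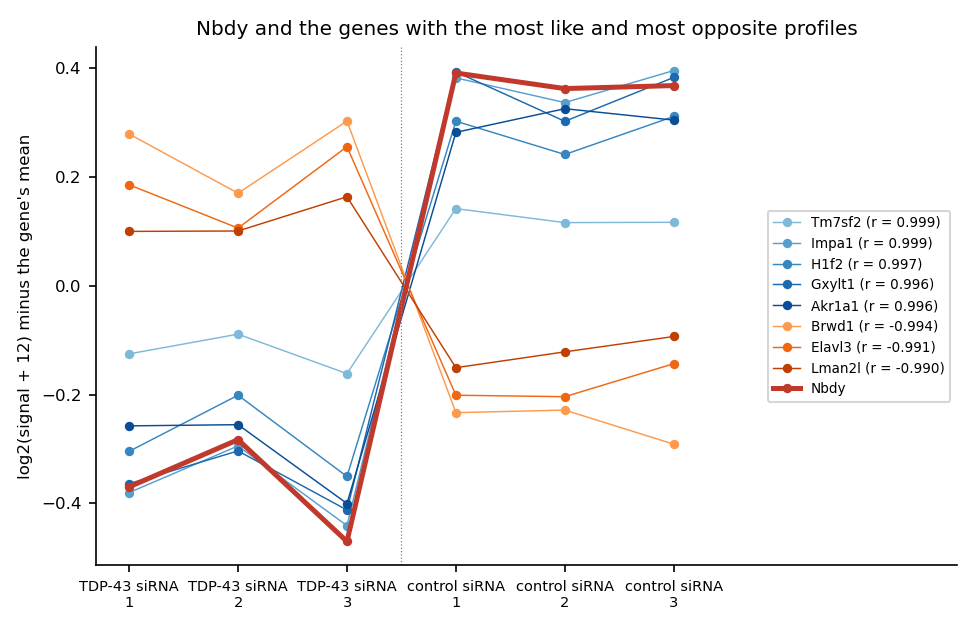
Log2(signal + 12) minus each gene's mean over 6 arrays (vertical axis) on 3 TDP-43 siRNA arrays and 3 control siRNA arrays, for Nbdy (red), the 5 genes with the highest correlation with it (blue) and the 3 with the lowest (orange); lines only link the points of a gene. Nbdy and the blue genes are below their means on all 3 TDP-43 siRNA arrays, which follows from how they were picked. Tm7sf2 spans the smallest range of the blue genes.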

How the data were processed

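Per the submitters' processing notes the authors used MAS5, of unstated version; they deposited its linear signal intensity for 45101 probe sets on 6 arrays. Trimmed of 2% of values at each end, every array averaged 500.003. The number of arrays limits precision. MAS5 scaling sets levels relative to each array's mean, so a shift common to all genes would not be seen.

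Gene names came from the platform annotation, for probe sets with 1 gene (34958), with symbols updated through Entrez numbers (34754 matched) in a RefSeq table of GRCm38.p6. The value 12 was added before log2. Control probe sets and the 40% with the lowest mean signal were left out. All 27023 others were fitted with limma 3.58.1 (R 4.3.3; eBayes with an intensity trend, two-sided tests), adjusted by Benjamini-Hochberg over all probe sets, with a threshold of 0.05. The steps were tested on simulated data. Figures used matplotlib 3.10.9.

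The genes named are the 9 members, Tardbp, the 2 genes of each decay list with the smallest p, up to 3 markers per list and the genes most like Nbdy. Ins1, Mafa, Sst and Slc30a8 stand outside this rule, the last 2 named after their values were seen. Members and lists were chosen with earlier results of these data known. Detection calls and sequences were not used here. Alternatives were pseudocounts of 1 and 42, no filter or a 60% filter, quantile and median scaling, variance models, array weights, a replicate block, 1 probe set a gene, mean probe sets, and each array left out.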

Additional observations from a re-analysis of the deposited data

How the results depend on the processing

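The counts of partner probe sets called, of mRNA decay genes called and of partner probe set pairs called were 0 under every alternative run for each. The Nbdy difference lay between -0.79 and -0.70 over 17 alternatives. Nbdy was selected on this difference and its groups did not overlap, so the kept sign adds no support. Over the partner probe sets, 242 of 246 recomputed differences kept their direction and their side of the threshold. The others were of Ddx6 1434697_at, at 0.0084 with array weights and between -0.082 and 0.041 with an array left out, and of Xrn1 1450308_a_at, between -0.145 and 0.064 with an array left out. The cause was not tested. The median difference of the 9 genes, Nbdy included, was -0.02; it was -0.08 with the mean of each gene's probe sets, 0.01 with array weights, and between -0.082 and 0.041 with an array left out.

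The count of 158 called probe sets was 69 with no filter and 94 with 1 probe set a gene, where more or fewer features were tested. It was 0 without the intensity trend, and the cause was not tested. It lay between 56 and 325 with an array left out. The Tardbp difference of -0.85 no longer passed without the trend (limma adjusted p = 0.0964). With the replicate number as a block the count was 156. The numbers did not pair the arrays steadily: deviations of same-numbered arrays correlated at -0.11, -0.13 and 0.25. Some differently numbered arrays correlated as well. The value was 0.29 for TDP-43 siRNA replicate 1 with control siRNA replicate 2. It was 0.22 for TDP-43 siRNA replicate 2 with control siRNA replicate 1. A pairing other than by number was not tested.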
